A study of Mus musculus with 6 samples.

Results

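The Egr, Nr4a and Ier immediate-early genes were followed in mouse 3T3-L1 preadipocytes, with and without human stromal cells in the same well. The members were the rows of the deposited expression table named Egr1, Egr2, Egr3, Nab2, Nr4a1, Nr4a2, Nr4a3, Ier2, Ier3 and Ier5, chosen by name, and all 10 of 10 were found among 21436 genes. 3T3-L1 is a cloned embryonic fibroblast line, wild type per the labels, that can be driven to become adipocytes. All cells sat in the lower chamber of a 0.4 µm Transwell for 72 h in adipogenic medium with 2 µmol/L rosiglitazone (a PPARγ agonist), 1 µmol/L dexamethasone (a glucocorticoid), 0.5 mmol/L IBMX (a phosphodiesterase inhibitor), 10 mg/L insulin and 10% serum. In 3 libraries the upper chamber was empty (alone), and in 3 human mesenchymal stem cells from umbilical cord grew there (co-culture). The question was how the human cells altered expression in the mouse cells across the membrane. How reads from human cells would have been handled in the co-culture libraries is not stated in the labels. The labels do not say that replicates came from separate cultures, and each p-value therefore reflects only library-to-library spread, which may be technical.

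Immediate-early genes are transcribed within minutes of a stimulus without new protein synthesis, through factors such as SRF with its Elk partners and CREB, which are already present and are switched on by ERK and cyclic AMP signalling. The Egr proteins are zinc-finger factors that bind GC-rich elements, and Nab2 is a corepressor that binds them and is itself induced by them. The Nr4a proteins are orphan nuclear receptors whose activity follows their amount more than any known ligand, and cyclic AMP is one of their best known inducers. The Ier genes encode short proteins, and some of them are known to act with protein phosphatase 2A. In preadipocytes, Egr and Nr4a members are induced at the start of hormonal differentiation, and the agents in the medium act on the pathways that induce them.

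Levels are FPKM, fragments scaled to gene length and to the library total, as deposited. Library totals recovered from the values were 29603755 to 38357563 reads. Changes are co-culture minus alone on the log2(FPKM + 1) scale, tested with limma across the 10055 genes whose mean reached 1 FPKM and called at a Benjamini-Hochberg adjusted p below 0.05. Fold values are ratios of mean FPKM. Of the 10 genes 9 could be tested, and Nr4a3 lay below the filter.

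In co-culture most of these genes were lower, and Egr3 went the other way. Ier3, Nab2, Nr4a1, Nr4a2, Ier2 and Egr1 fell, 6 of the 9 tested, where 17.9% of all tested genes fell. Egr3 rose, 1 of 9, where 13.9% of all tested genes rose. Egr2 and Ier5 were not called. The falls ranged from 3.41-fold for Ier3 to 1.16-fold for Egr1, and the rise of Egr3 was 1.85-fold. The median log2 change of the 9 was -0.27, against -0.0037 for all tested genes. The alone and co-culture libraries did not overlap for 8 of the 10 genes, 7 lower (24.8% of all tested genes) and 1 higher (21.3%).

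**Figure D1:**
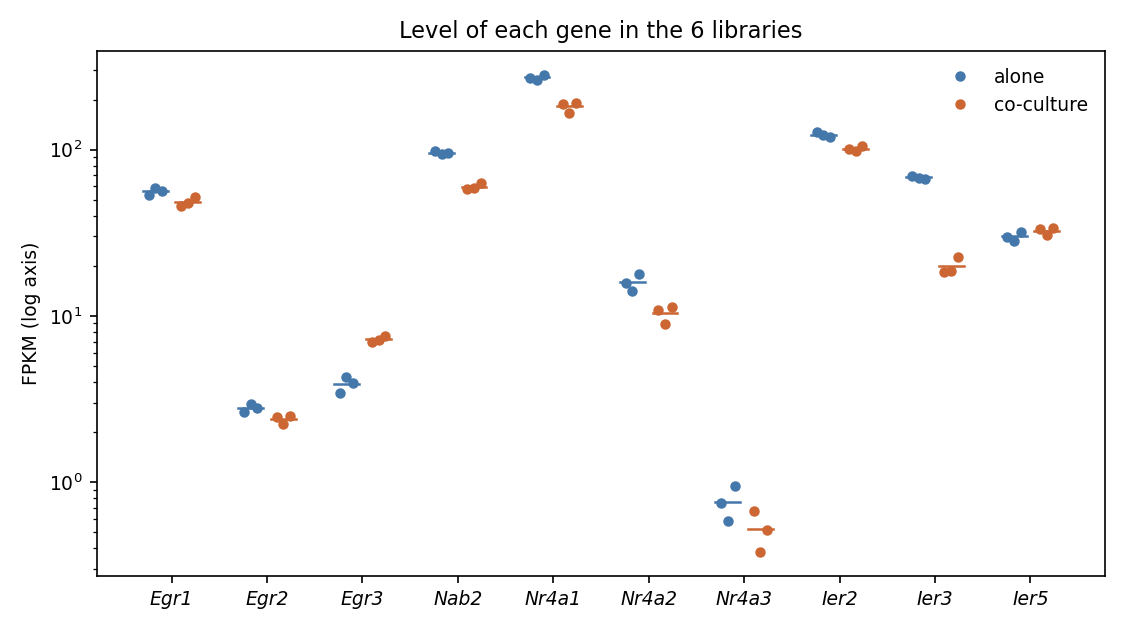
FPKM on a log axis for each of the 10 genes, with 1 point per library (3 alone, 3 co-culture) and a line at each group's mean. Nr4a1 was the highest gene in each group at 272 and 182 FPKM, Ier3 showed the widest gap between groups, and only Egr3 stood higher in co-culture without overlap.

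The 10 genes spanned a wide range of levels, and their order was nearly the same in each group. Alone, from the highest mean, they were Nr4a1, Ier2, Nab2, Ier3, Egr1, Ier5, Nr4a2, Egr3, Egr2 and Nr4a3. In co-culture Ier3 moved from place 4 to place 6, behind Egr1 and Ier5, and the others kept their order. In each group 0 of the 9 pairs of neighbours in this order had overlapping libraries. The order rests on the gene lengths behind FPKM. That for Egr2 was 9083 bp, against 3398 bp of merged exons in GENCODE M21, so its place next to Egr3 is not firm. Lengths also differed for Egr1 (3072 against 4484 bp), Nr4a1 (5123 against 3509 bp) and Nr4a3 (7626 against 5987 bp). The place of Egr1 next to Ier5 in co-culture therefore depends on the length used as well. Nr4a1 stood at percentile 99.1 of all listed genes alone and 98.7 in co-culture, and Ier3 at percentile 96.0 and 87.0. The reads behind the values ranged from 652 alone and 406 in co-culture for Nr4a3 to 156585 and 97183 for Nr4a1.

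**Figure D2:**
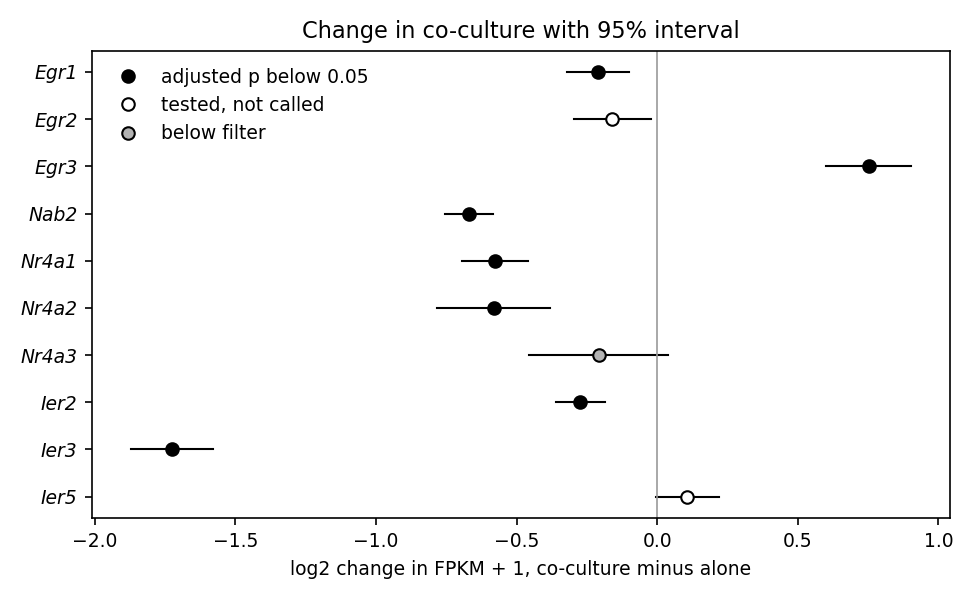
The log2 change in FPKM + 1 from alone to co-culture for each gene, with its 95% interval from limma. Filled points passed an adjusted p of 0.05, open points did not, and the grey point is Nr4a3, which was fitted without the filter on low genes. The interval of Ier3 runs from -1.87 to -1.58, far from those of the other genes, and that of Egr3 from 0.60 to 0.90.

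Egr1, the best known member of the Egr family and a broad early response factor, was modestly lower. It measured 53.1, 58.5 and 56.5 FPKM in alone replicates 1 to 3 and 46.1, 47.4 and 51.5 FPKM in co-culture replicates 1 to 3. The lowest alone library stood just above the highest co-culture library. The means were 56.0 ± 2.74 and 48.3 ± 2.85 FPKM (SD, n = 3), and the log2 change was -0.21 (SE 0.050, limma adjusted p = 0.00906). The call was lost when low genes were tested as well (adjusted p = 0.0676).

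Egr2, a factor known from nerve myelination that also acts early in adipogenesis, was at a low level. It measured 2.63, 2.94 and 2.80 FPKM alone and 2.47, 2.22 and 2.49 FPKM in co-culture. Every co-culture library was below every alone library, but by little. The log2 change of -0.16 (95% interval -0.30 to -0.023) was not called over all tested genes (limma adjusted p = 0.0727), although it passed without a variance trend (0.0442), with array weights (0.0406) and with limma-voom run on reads recovered from the table (0.0191). The length recovered from the values was 9083 bp, more than the 7720 bp that RefSeq gives for the whole gene, so the level of Egr2 against other genes depends on that length, while its fold does not.

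Egr3, a close relative induced by the same stimuli, moved in the opposite direction. It measured 3.42, 4.31 and 3.93 FPKM alone and 6.99, 7.11 and 7.53 FPKM in co-culture. All 3 co-culture libraries were far above the alone libraries and close to each other. The means were 3.89 ± 0.442 and 7.21 ± 0.286 FPKM (SD, n = 3), a log2 change of 0.75 (SE 0.068, limma adjusted p = 2.58e-05) and the 11th largest rise of all tested genes. With it the make-up of the family shifted. Egr3 held 6.18 ± 0.380% of the summed FPKM of the 3 Egr genes alone and 12.5 ± 0.187% in co-culture, while Egr1 went from 89.4 ± 0.398% to 83.4 ± 0.392% and the sum from 62.7 ± 3.33 to 57.9 ± 3.19 FPKM. Shares within a family, here and below, depend on the gene lengths behind FPKM, that of Egr2 included.

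Nab2, the corepressor that limits the activity of Egr proteins, fell more than Egr1. It measured 97.7, 93.8 and 95.6 FPKM alone and 58.0, 58.7 and 62.8 FPKM in co-culture. The groups stood far apart with little spread inside them. The means were 95.7 ± 2.00 and 59.8 ± 2.60 FPKM (SD, n = 3), 1.599-fold lower, with a log2 change of -0.67 (SE 0.039, limma adjusted p = 1.81e-06). In GENCODE M21 the exons of Nab2 share 40 bp with Stat6 and 151 bp with Nemp1, which lie on the other strand, and 1050 bp (35.7% of its exon length) with the antisense gene Gm16229. No source used here says whether counting used strand, and reads of that stretch cannot be told apart. Stat6 went from 20.5 ± 0.564 to 20.9 ± 0.839 FPKM (limma adjusted p = 0.718) and Nemp1 from 1.47 ± 0.0553 to 1.26 ± 0.0884 (0.137), both far below Nab2.

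The ratio of Nab2 to Egr1 was lower in co-culture in every library, at 1.84, 1.602 and 1.69 alone and 1.26, 1.24 and 1.22 in co-culture. Egr3 over Egr2 went from 1.39 ± 0.0802 to 3.01 ± 0.183 (SD, n = 3). Egr2 over Egr1 averaged 0.0498 ± 4.65e-04 against 0.0497 ± 0.00351, with overlapping libraries. The size of each ratio depends on the gene lengths behind FPKM, while its fold between groups does not. Differences in log2 change were tested for 10 pairs of genes by an exact two-sided permutation test over the 6 libraries, whose smallest possible p with 3 against 3 is 0.1, so no pair could pass 0.05. Nab2 against Egr1 (-0.46, SE 0.059), Egr3 against Egr1 (0.96, SE 0.041) and Egr3 against Egr2 (0.91, SE 0.056) each reached that smallest exact p, 0.125 after adjustment over the 10 pairs. Egr2 against Egr1 differed by 0.051 (SE 0.049, exact p = 0.4).

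**Figure D3:**
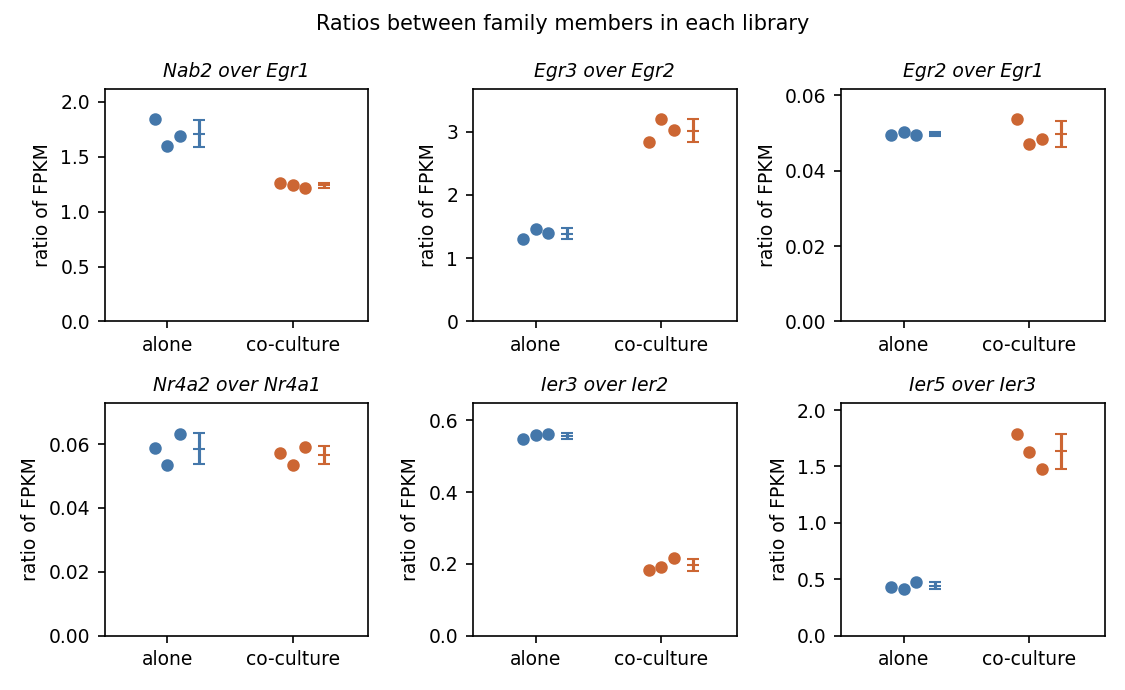
Ratio of FPKM between pairs of genes in each library (points) with the mean and SD of 3 libraries beside them (bars), from 0 on each axis. Nab2 over Egr1 and Ier3 over Ier2 were lower in all 3 co-culture libraries, Egr3 over Egr2 and Ier5 over Ier3 were higher, and Egr2 over Egr1 and Nr4a2 over Nr4a1 overlapped.

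The window upstream of Egr2 is shown because it holds elements of the SRF and CREB routes side by side. Promoter windows of RefSeq (GRCm38.p6, the mm10 assembly) were found for 7 of the 10 genes. The 250 bases before each start were searched on both strands for the CArG box (bound by SRF), the full cyclic AMP element TGACGTCA, the shorter TGACG (also part of the full one), the Egr elements GCGTGGGCG and GCGGGGGCG, the Nr4a element AAAGGTCA, the AP-1 element TGACTCA and the NF-kB site. Of 32851 windows over all genes, 1.47% held a CArG box, 1.55% TGACGTCA, 17.8% TGACG, 0.536% GCGTGGGCG, 2.57% GCGGGGGCG, 1.34% AAAGGTCA, 4.46% TGACTCA and 3.90% an NF-kB site. Egr2 has 5 annotated starts and windows, some of which overlap, and 4 of them held a CArG box. The windows that begin at 67537619, 67537620 and 67537680 hold the same box, so the 4 are not separate sites. The window at chr10:67537619-67537868, plus strand, precedes a start inside the gene's full span and is written 5′ to 3′ with the CArG box and both TGACG matches in capitals (a match on the other strand reads CGTCA). A match is a description of the letters and not of a bound site.
Egr2: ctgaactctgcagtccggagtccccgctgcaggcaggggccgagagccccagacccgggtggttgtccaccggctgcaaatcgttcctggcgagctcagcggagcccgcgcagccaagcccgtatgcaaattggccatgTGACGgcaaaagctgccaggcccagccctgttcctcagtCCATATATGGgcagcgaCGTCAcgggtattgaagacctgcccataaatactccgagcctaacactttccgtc

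Of the 3 Nr4a genes, Nr4a1 and Nr4a2 fell, and Nr4a3 was too low for the main test. Nr4a1 (Nur77), the most abundant of the 10 genes, measured 269, 264 and 282 FPKM alone and 189, 166 and 191 FPKM in co-culture. No co-culture library came near the alone range. The means were 272 ± 9.60 and 182 ± 13.8 FPKM (SD, n = 3), 1.49-fold lower, with a log2 change of -0.58 (SE 0.053, limma adjusted p = 2.89e-05).

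Nr4a2 (Nurr1), best known for its role in dopaminergic neurons, measured 15.8, 14.1 and 17.9 FPKM alone and 10.8, 8.87 and 11.3 FPKM in co-culture. Its libraries were more spread than those of Nr4a1 but did not overlap. It was 1.54-fold lower, with a log2 change of -0.58 (SE 0.091, limma adjusted p = 9.65e-04). The ratio of Nr4a2 to Nr4a1 was 0.0585 ± 0.00489 in cells alone against 0.0566 ± 0.00289 with the human cells (SD, n = 3). The difference in log2 change between them was -0.0027 (SE 0.073, exact permutation p = 1), which does not show that they changed equally. Nr4a1 held 94.2 ± 0.484% of the summed Nr4a FPKM alone and 94.4 ± 0.292% in co-culture, while the sum went from 288 ± 11.6 to 193 ± 15.2 FPKM.

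Nr4a3 (Nor1), the third receptor, was the lowest of the 10 genes at 0.743, 0.584 and 0.944 FPKM alone and 0.664, 0.380 and 0.516 FPKM in co-culture. Co-culture replicate 1 lay above alone replicate 2, so the groups overlapped. These values rest on 215, 161 and 276 reads alone and 150, 109 and 147 reads in co-culture. The ratio of the means was 0.687, while the log2 change on the FPKM + 1 scale was -0.21 (95% interval -0.45 to 0.038, limma adjusted p = 0.281 when low genes were tested), because the added 1 exceeds the value itself. At a pseudocount of 0.01 the log2 change was -0.54 (adjusted p = 0.260), and limma-voom on reads gave -0.58 (0.0469). The difference in log2 change from Nr4a1 likewise went from 0.37 at a pseudocount of 1 to 0.039 at 0.01.

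The windows upstream of Nr4a1 and Nr4a2 are shown because the 3 Nr4a genes, which share a response to cyclic AMP in many cells, each have 4 copies of TGACG in the window searched. Only 45 of the 32851 windows (0.137%) held 4 or more, a count looked up after the copies were seen. The windows counted were not matched to these genes in G and C content. In capitals are TGACG or CGTCA and, in Nr4a1, the Egr element GCGGGGGCG, which reads CGCCCCCGC on the strand shown. The Nr4a1 window is chr15:101266596-101266845, plus strand, and the Nr4a2 window is chr2:57124004-57124253, minus strand, each 5′ to 3′. The Nr4a1 window precedes a start inside the gene's full span. The Nr4a3 window, not shown, lies largely inside its gene's full span. Of its 250 bases 152 were in annotated exons, and none of its copies lies wholly upstream of the gene's full span. Both are GC-rich, with Nr4a1 at 74.4% G or C and Nr4a2 at 80% against a median of 52.4% over all windows. None of the windows of the 7 genes held TGACGTCA or AAAGGTCA, and those of Nab2 and Ier5 held none of the motifs searched.
Nr4a1: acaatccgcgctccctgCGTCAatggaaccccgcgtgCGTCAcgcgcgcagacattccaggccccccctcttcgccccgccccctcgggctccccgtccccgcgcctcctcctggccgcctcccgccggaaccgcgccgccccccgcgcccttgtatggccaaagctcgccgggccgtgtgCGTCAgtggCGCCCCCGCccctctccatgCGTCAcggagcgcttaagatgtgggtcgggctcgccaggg
Nr4a2: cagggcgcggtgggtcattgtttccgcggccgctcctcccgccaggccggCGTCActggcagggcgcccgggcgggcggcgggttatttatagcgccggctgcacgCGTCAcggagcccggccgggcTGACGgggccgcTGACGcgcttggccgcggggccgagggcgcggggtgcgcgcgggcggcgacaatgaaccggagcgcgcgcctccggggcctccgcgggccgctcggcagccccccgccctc

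Ier3 (IEX-1), a small protein known to act on ERK signalling and cell survival and a classic NF-kB target, had the largest change of the 10 genes. It measured 69.5, 67.9 and 66.6 FPKM alone and 18.4, 18.7 and 22.7 FPKM in co-culture. The alone libraries were tightly grouped, and every co-culture library lay far below the lowest of them. The means were 68.0 ± 1.45 and 19.9 ± 2.38 FPKM (SD, n = 3), 3.41-fold lower, with a log2 change of -1.725 (SE 0.066, limma adjusted p = 7.01e-08), the 9th largest fall of all tested genes. The values rest on 2672 to 2872 reads per library alone and 595 to 923 in co-culture.

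The window of Ier3 at chr17:35821463-35821662, plus strand, is shown because it was the only one of the searched windows of these genes to hold an NF-kB site. The site reads on the minus strand and is in capitals. The bases given are 250 to 51 before the RefSeq start.
Ier3: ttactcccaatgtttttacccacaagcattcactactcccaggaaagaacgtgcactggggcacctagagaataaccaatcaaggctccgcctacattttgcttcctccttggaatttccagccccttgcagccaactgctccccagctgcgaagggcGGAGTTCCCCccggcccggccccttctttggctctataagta

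Ier2, a nuclear protein induced by many growth factors, was slightly lower. It measured 126.8, 121.5 and 118 FPKM alone and 100.1, 97.8 and 105 FPKM in co-culture. The groups were close but separate. It was 1.21-fold lower, with means of 122 ± 4.33 and 101 ± 3.65 FPKM (SD, n = 3) and a log2 change of -0.27 (SE 0.040, limma adjusted p = 6.27e-04). Its length recovered from the values, 1522 bp, equals its whole span in RefSeq.

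Ier5, which is known to act with protein phosphatase 2A on heat shock factor 1, did not pass the test. It measured 29.9, 28.3 and 31.8 FPKM alone and 33.0, 30.5 and 33.6 FPKM in co-culture. Co-culture replicate 2 lay inside the alone range. The log2 change was 0.11 (95% interval -0.0041 to 0.22, limma adjusted p = 0.131), and the adjusted p stayed above 0.05 in 18 other settings (0.0588 to 0.372).

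The Ier genes therefore took different shares of their summed FPKM, which went from 220.2 ± 5.24 alone to 153 ± 7.28 in co-culture. Ier3 went from 30.9 ± 0.255% to 12.98 ± 0.978%, Ier2 from 55.5 ± 0.789% to 65.9 ± 0.739% and Ier5 from 13.6 ± 0.901% to 21.1 ± 0.577% (SD, n = 3). Ier3 was below Ier2 by a ratio of 0.556 ± 0.00782 alone and 0.197 ± 0.0168 in co-culture. The difference in log2 change was -1.45 (SE 0.067) for Ier3 against Ier2, 1.83 (SE 0.094) for Ier5 against Ier3 and 0.38 (SE 0.068) for Ier5 against Ier2, each at the smallest exact permutation p of 0.1 (0.125 over the 10 pairs).

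Other early response genes were mostly lower as well. Of 56 listed genes 50 were tested, 30 fell, 6 rose and 14 were not called, with a median log2 change of -0.24. Over all tested genes 17.9% fell and 13.9% rose, so rises were no more frequent in this list. The smallest p belonged to Zfp36 (69.7 ± 3.16 to 15.6 ± 1.85 FPKM), which destabilises cytokine mRNAs, Ptgs2, the inducible cyclooxygenase (60.1 ± 3.44 to 16.7 ± 1.45 FPKM), the EGF receptor ligand Ereg (27.9 ± 1.63 to 9.07 ± 0.838 FPKM) and Phlda1, a pleckstrin-homology-like protein (63.9 ± 0.748 to 26.65 ± 2.53 FPKM, limma adjusted p = 4.19e-07). The 6 that rose, named after their values were seen, were Klf2 (1.24 ± 0.122 to 3.27 ± 0.364 FPKM), Klf6 (25.15 ± 1.23 to 47.4 ± 2.64 FPKM), Dusp5 (5.76 ± 0.343 to 11.5 ± 0.343 FPKM), Btg2, Nfkbiz and Srf. Of the 5 listed genes below the filter, 3 stood higher in co-culture without overlap, where 21.3% of all tested genes did. The share among genes below the filter was not worked out. Fosb had means of 0.327 and 0.808 FPKM (138 and 320 reads), Arc of 0.472 and 0.764 (163 and 244 reads) and Ccn2 of 0.0588 and 0.162 (16 and 40 reads), the first of each pair being the cells alone.

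SRF, its cofactors and their actin-linked targets were higher where they were called. Of 17 listed genes 16 were tested, 11 rose and 0 fell (limma, also 0 at an unadjusted p below 0.05 and 0 with limma-voom), with a median log2 change of 0.20. Among all tested genes 13.9% rose and 17.9% fell. Acta2, smooth-muscle actin (185.5 ± 9.35 to 283 ± 6.03 FPKM), tropomyosin Tpm1 (68.1 ± 1.28 to 85.4 ± 0.897 FPKM), the myosin light chain Myl9 (3.15 ± 0.364 to 5.65 ± 0.393 FPKM) and the actin-binding Tagln (3.72 ± 0.1002 to 6.05 ± 0.847 FPKM) had the smallest p. Srf itself rose from 12.1 ± 0.620 to 15.1 ± 0.257 FPKM (limma adjusted p = 9.84e-04). The Elk genes, whose proteins partner SRF at immediate-early promoters, were not called, at 9.96 and 10.4 FPKM for Elk1, 9.55 and 9.99 for Elk3 and 3.99 and 4.21 for Elk4. The 11 that rose numbered 7 when low genes were tested.

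Transcripts of the ERK and CREB machinery changed little. Of 32 tested genes 6 fell, 2 rose and 24 were not called (median log2 change -0.032), shares close to those of all tested genes for the falls. The kinases Map2k1 (27.6 ± 1.57 to 23.3 ± 0.633 FPKM), Map2k2 (18.5 ± 1.27 to 15.5 ± 0.613 FPKM) and Rps6ka2 (4.72 ± 0.135 to 3.76 ± 0.143 FPKM) and the small GTPase Hras (8.29 ± 0.401 to 6.92 ± 0.476 FPKM) had the smallest p. Creb1 had means of 8.35 and 7.63 FPKM (limma adjusted p = 0.0823). The 2 that rose were the growth factor receptor Fgfr1 (101.5 ± 1.56 to 109.7 ± 3.65 FPKM) and the CREB coactivator Crtc1 (2.62 ± 0.169 to 3.15 ± 0.09995 FPKM), named after their values were seen. That count was 0 whenever replicate 1 or replicate 3 of either group was left out, and 1 with alone replicate 2 left out. The 6 that fell numbered 3 when low genes were tested.

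Genes described as targets or partners of the 3 families moved in both directions, where 17.9% of all tested genes fell and 13.9% rose. Rises among the Egr targets and falls among the Nr4a targets were no more frequent than that. Of the relatives Nab1, Sp1 and Sp3, which bind Egr proteins or the same GC-rich sites, the second corepressor Nab1 fell (13.4 ± 0.593 to 11.6 ± 0.439 FPKM, limma adjusted p = 0.0114) and Sp1 rose (19.7 ± 1.11 to 22.6 ± 0.979 FPKM), the latter not called without co-culture replicate 2. The relative Egr4 was not among the listed genes. Wt1, below the filter, was higher in co-culture without overlap, at 0.0377 and 0.0998 FPKM (13 and 32 reads), cells alone first. Of 20 tested genes described as Egr targets 9 fell and 2 rose (median log2 change -0.13). Cebpb, an early adipogenic factor (251 ± 6.86 to 171.6 ± 4.26 FPKM) and the angiogenic factor Vegfa (252 ± 7.03 to 195 ± 2.20 FPKM) fell, and the tissue factor gene F3 was one of those that rose (67.4 ± 0.769 to 91.7 ± 2.19 FPKM). Of 14 tested Nr4a partners and described targets 5 rose and 2 fell (median log2 change 0.11), with Txnip (52.2 ± 0.239 to 84.1 ± 6.66 FPKM) and the partner receptor Rxra (39.5 ± 0.294 to 44.5 ± 0.703 FPKM) higher and Cdkn1a (43.4 ± 0.748 to 31.4 ± 0.915 FPKM) and Aldoa (335 ± 20.1 to 257.5 ± 8.92 FPKM) lower. Smarcd3, Ccnd1 and Pfkm were the others that rose, named after their values were seen. The 5 that rose numbered 3 with co-culture replicate 1 left out and 3 when low genes were tested.

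The heat shock genes linked to Ier5 moved in both directions. Of 18 tested genes 7 fell, 3 rose and 8 were not called, with a median log2 change of -0.020, where 17.9% of all tested genes fell and 13.9% rose. Serpinh1, the collagen chaperone (358 ± 5.09 to 289.5 ± 5.81 FPKM), Hsph1 (76.4 ± 3.46 to 55.6 ± 4.93 FPKM), Chordc1 (38.2 ± 1.80 to 31.2 ± 0.257 FPKM) and the mitochondrial chaperonin Hspd1 (211 ± 4.62 to 164 ± 14.3 FPKM) fell with the smallest p. The small heat shock protein Cryab (11.03 ± 0.586 to 14.0 ± 0.473 FPKM), Hspa1a and Dnaja1 rose, named after their values were seen. These 3 became 1 with alone replicate 2, with alone replicate 3 or with the third co-culture library left out, and 1 when low genes were tested. Of 13 tested subunits and inhibitors of protein phosphatase 2A 4 fell and 1 rose (median log2 change -0.037). Those lower included the catalytic subunit Ppp2ca (135.5 ± 1.91 to 119 ± 2.13 FPKM), the regulatory subunit Ppp2r2a (30.6 ± 0.691 to 25.8 ± 1.03 FPKM) and the inhibitor Set (80.8 ± 2.69 to 62.9 ± 2.63 FPKM). The scaffold subunit Ppp2r1a rose (95.55 ± 0.806 to 102.4 ± 1.94 FPKM), named after its values were seen, and its call held with alone replicate 1 left out but was lost with each of the other 5 libraries left out.

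**Figure D4:**
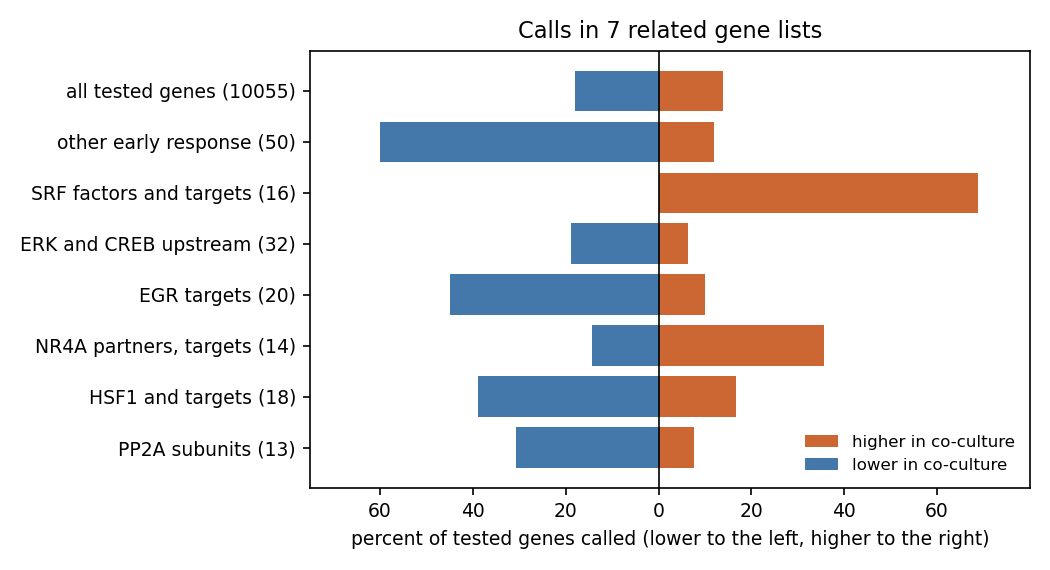
Percent of tested genes called lower (left, blue) and higher (right, orange) in co-culture for all tested genes and 7 related lists, with the number tested in brackets. The other early response genes lean to the left with 30 of 50 lower, the SRF list holds 11 of 16 higher and 0 lower, and the bars of the ERK and CREB list are close to those of all tested genes or shorter.

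Most preadipocyte markers were abundant, and most adipocyte markers were not. Mean Vim was 1202 and 1346 FPKM and mean Col1a2 774 and 823 FPKM, cells alone first, and 9 of 11 preadipocyte markers could be tested. Cd34 (5 reads in each group) and Fap (5 and 8 reads) were below 0.1 FPKM. Pdgfra, Pdgfrb, Ly6a, Dlk1 and Vim rose and Thy1 and Col3a1 fell, all named after their values were seen, and the list summed to 3660 to 3791 FPKM alone and 3965 to 3981 in co-culture. Of the 10 adipocyte markers listed, 6 were below 0.1 FPKM, with 1 read of Adipoq alone and 0 in co-culture, while Lpl, which fell (226 and 190.5 FPKM, limma adjusted p = 0.00135), and Fabp4 (53.4 and 58.2 FPKM, 0.0508) were abundant. The adipocyte list summed to 271 to 291 FPKM alone and 242 to 253.5 in co-culture. Endothelial markers summed to 0.156 to 0.298 FPKM per library (Emcn and Pecam1 highest) and epithelial ones to 0.0118 to 0.0839 (Krt8 and Cdh1 highest). Macrophage markers summed to 17.1 to 20.6 FPKM alone and 15.3 to 18.4 in co-culture, nearly all from Cd14 and Cd68, with 1 read of Adgre1 in each group, and muscle markers to 1.93 to 2.35 and 2.37 to 2.85 (Des and Tnnt3 highest). Blood and neutrophil markers, led by S100a9 and S100a8, summed to 20.1 to 37.0 FPKM alone and 3.82 to 21.4 in co-culture, 2 of the 4 tested fell (the globins Hbb-bs and Hba-a1), and mitochondrial protein transcripts took 4.40% to 4.62% of reads alone and 4.82% to 4.996% in co-culture. Their part in the changes of the immediate-early genes was not tested, and in bulk RNA fewer cells of a type and less RNA per cell cannot be told apart.

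In GRCm38.p6 coordinates counted from 1, Egr1 lies on chromosome 18 from 34861207 to 34864956, Egr2 on chromosome 10 from 67534469 to 67542188 and Egr3 on chromosome 14 from 70077317 to 70082613. Nab2 lies on chromosome 10 from 127660918 to 127666703. Nr4a1 lies on chromosome 15 from 101253902 to 101274795, Nr4a2 on chromosome 2 from 57106830 to 57124003 and Nr4a3 on chromosome 4 from 48045078 to 48086447. Ier2 lies on chromosome 8 from 84661331 to 84662852, Ier3 on chromosome 17 from 35821713 to 35822911 and Ier5 on chromosome 1 from 155096367 to 155099636. All 10 are protein-coding genes, and no exon overlap with another GENCODE M21 gene was found for the 9 genes other than Nab2.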

How the data were processed

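The deposited table gave FPKM values for 21436 genes in 6 libraries, 1 column each. Per the submitters' processing notes, fastp, HISAT2, HTSeq and the mm10 genome were used; for versions, annotation and strand settings the sources used here say nothing (not given). 0 value columns lacked a sample. Whole reads were recovered from the ratios of low values (tolerance 1e-05 reads, 21435 genes resolved, scale set with the 1545 bp of cytochrome c oxidase subunit 1). For the first library 2 totals fitted, and the smaller was used. Read counts and gene lengths given here rest on that choice. The totals were 37929978, 36119750 and 38357563 reads alone and 29603755, 37612585 and 37325449 in co-culture. Differences were tested on log2(FPKM + 1) by limma's moderated linear model with a mean-variance trend (limma 3.58.1, R 4.3.3), without a replicate block, after a filter at a mean of 1 FPKM that left 11381 genes untested. It was checked on simulated reads. Each of these was changed in turn as an alternative: pseudocounts of 0.1 and 0.01, no filter or a filter at 5 FPKM, median-ratio, TPM and quantile scaling, no trend, array weights, limma-voom, the replicate block, an adjusted p of 0.01 and each library left out. Those for Nr4a3 without a filter were added after the data were seen. From each list the text names up to 4 called genes with the smallest p whose groups did not overlap, and from each marker list the 2 highest, except 1 gene not reported here. The members and lists were chosen with earlier results of these data known, so their counts are descriptions.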

Additional observations from a re-analysis of the deposited data

How the results depend on the processing

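Over the alternatives, Egr3, Nab2, Nr4a1, Nr4a2, Ier2 and Ier3 kept their direction and their call in 18 of 18 settings and Ier5 stayed uncalled. Across these settings 1 member was higher and 5 to 7 were lower (5 when low genes were tested, where Egr1 had an adjusted p of 0.0676; 7 without a trend, with array weights and with limma-voom, where Egr2 was called). Over all tested genes the same-numbered libraries did not deviate together (correlations of -0.044, 0.109 and -0.083). Nr4a1, Nr4a2 and Ier5, however, had the same order of replicates in both groups, and the other members did not. With the replicate block the limma adjusted p was 6.57e-05 for Nr4a1, 9.28e-05 for Nr4a2 and 0.067 for Ier5. In that setting 1 member was higher and 6 lower, the ERK and CREB list had 0 higher and the phosphatase list 0 higher. The difference between Egr2 and Egr1 turned to -0.0054 at a pseudocount of 0.01. That between Nr4a2 and Nr4a1 turned to 0.0013, 0.051 and 0.029 without alone replicate 1, alone replicate 3 and co-culture replicate 2, within a leave-one-out range of -0.060 to 0.051.

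With low genes tested, 7 SRF genes, 0 ERK and CREB genes, 3 Nr4a partners or targets and 1 heat shock gene were higher, and 3 ERK and CREB genes were lower. At an adjusted p of 0.01 these counts were 7, 0, 3, 1 and 3, the Egr relatives had 0 higher and 0 lower, the phosphatase list had 0 higher, and 635 genes were higher and 1073 lower over all. The ERK and CREB list had 1 higher with a filter at 5 FPKM, with TPM scaling and without a trend, and the phosphatase list 0 with TPM scaling and without a trend. Leaving out each library in turn gave 919 to 1427 genes higher over all (919 without co-culture replicate 3), 0 to 2 for the ERK and CREB list, 1 to 4 for heat shock genes, 3 to 5 for Nr4a partners and targets, 0 to 1 for the Egr relatives and 0 to 1 for the phosphatase list. The cause of these changes was not tested. With a filter at 5 FPKM Egr2 was not tested. Nr4a3 had the fewest reads, 109 to 276 per library, and the SD of its FPKM was 23.8% of the mean alone and 27.3% in co-culture.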
